A study of Coprinopsis cinerea with 4 samples.

Results

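A set of 211 genes of the mushroom Coprinopsis cinerea had 16 to under 64 times more normalized reads in hyphae than in oidia, out of 13342 genes in the table. They were chosen by these measured values: each had at least 100 reads in both hyphae libraries, and the mean of the 2 hyphae libraries was at least 16 and under 64 times the mean of the 2 oidia libraries, after counts were divided by median-of-ratios size factors, which set the typical gene equal across libraries. The higher level in hyphae is therefore what selected them and is described here without a test. Of the 5106 genes with at least 100 reads in both hyphae libraries, these genes were 4.13%. Both stages came from strain okayama7#130, with no treatment or time named, and 2 poly(A)-selected libraries were sequenced from each. The kits differed by stage (SOLiD Total RNA-seq for oidia, NEBNext Ultra for Illumina for hyphae), and the effects of kit and stage cannot be told apart. The series set RNA of the stages beside work on oxidized methylcytosine in this fungus.

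Hyphae are the tubular, tip-growing filaments of the mycelium, which secrete enzymes, take up nutrients and build new cell wall at their tips. Oidia are thin-walled single cells that break off from hyphae of the haploid mycelium, spread, and germinate into new hyphae. A gene that is abundant in hyphae and low but present in oidia lies between genes that both stages use alike and genes read in hyphae alone. The sources used here give these genes by locus identifier only: all 211 were found in the RefSeq gene list, and 0 had a symbol other than the locus tag, so no function is attached to any of them. No sequence of a gene, promoter or protein was used.

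Depth in gene reads was 4586306 for hyphae replicate 1, 3546635 for hyphae replicate 2, 7519091 for oidia replicate 1 and 6128727 for oidia replicate 2. The selected genes held 335262 and 262553 of them in hyphae and 6828 and 5548 in oidia. That is 7.36% ± 0.0656 of gene reads in hyphae and 0.0907% ± 0.000201 in oidia (SD, n = 2 each). In bulk RNA, fewer cells that express a gene and less of its RNA per cell cannot be told apart. Separate cultures for the replicates are not named in the labels, and p-values from the fit then measure only a spread that may be technical.

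Across the selected genes the normalized read count had a median of 319 in hyphae replicate 1 (range 76.8 to 17077) and 319 in hyphae replicate 2 (range 85.9 to 18272). In oidia the medians were 13.1 in replicate 1 (range 0 to 731) and 10.3 in replicate 2 (range 0 to 726). The stages did not overlap in any of the 211 genes, the lower hyphae value being at least 9.08 times the higher oidia value. Because the rule used these values, that count says nothing further; among all 12861 genes with a read, 47.3% had both hyphae values above both oidia values. In the edgeR quasi-likelihood fit of all 9866 genes with enough reads, 45.2% were called higher in hyphae (Benjamini-Hochberg adjusted p under 0.05), and all 211 selected genes passed the low-count filter and were among these calls. The fit scaled libraries by TMM, a trimmed mean of the ratios between them, and 54.4% of all called genes were then higher in hyphae. With scaling by total gene reads that share was 82.7%, the folds of the 211 genes ran from 48.1 to 191, and 528 genes met the rule, of which 73 were in the set. The median log2 fold change (hyphae over oidia) in the TMM fit was 4.66 for the selected genes and 0.25 for all genes tested. Standard errors of the selected genes had a median of 0.22 and ran from 0.07 to 0.49.

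**Figure D1:**
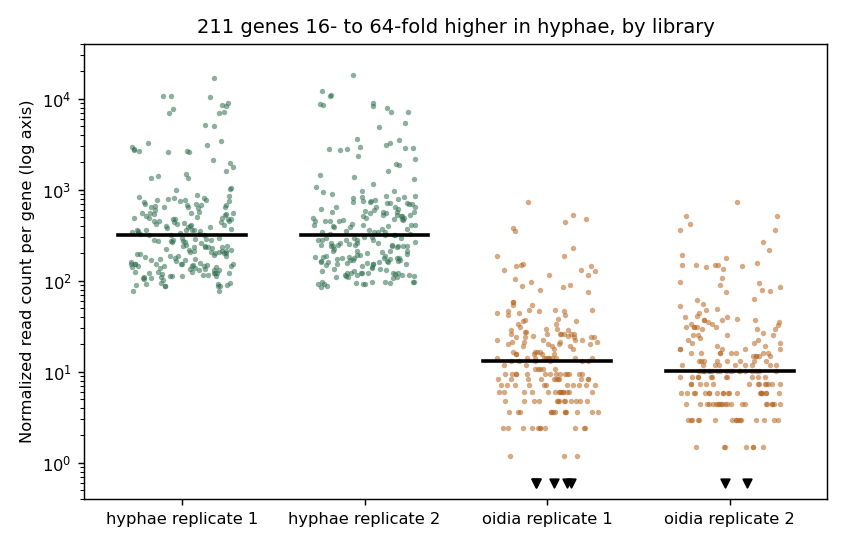
Normalized read count (log axis) of each of the 211 selected genes in each library; a point is a gene, the bar is the median over genes, and a triangle is a gene with no read in that library (triangles may overlap). Medians were 319 and 319 in hyphae and 13.1 and 10.3 in oidia, and 5 genes had no read in oidia replicate 1 and 2 in oidia replicate 2.

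**Figure D2:**
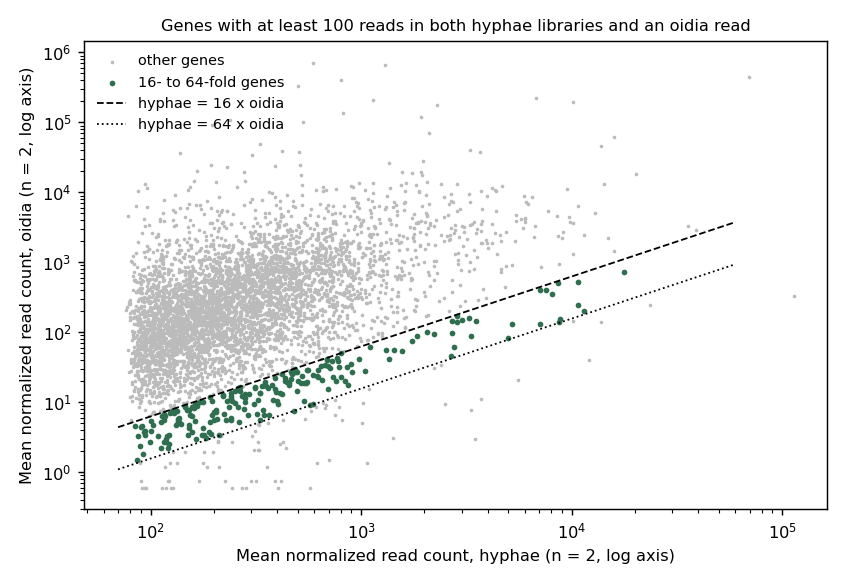
Mean normalized read count in oidia against hyphae (n = 2 each, log axes) for genes with at least 100 reads in both hyphae libraries and an oidia read; the selected genes are green and lie between the lines of 16-fold and 64-fold. The band holds genes over the whole range of hyphae counts, from 83.9 to 17675 normalized reads.

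The fold of most selected genes lay near the lower limit. It had a median of 24.9, with 143 genes under 32-fold and 68 at 32-fold or more. Oidia reads set how well a fold was known: a gene had between 2 and 1108 oidia reads over both libraries, with a median of 19, while hyphae reads ran from 226 to 47976 with a median of 853. Of the 211 genes, 56 had fewer than 10 oidia reads, and 25 had at least 100. The 95% exact (Clopper-Pearson) interval of the fold covers counting error only. It was computed from reads summed by stage and scaled by summed size factors. The fold itself is a ratio of means of separately normalized libraries, so the interval need not be centred on it. This interval lay wholly between 16 and 64 for 60 genes. It reached below 16 for 105 genes and to 64 or above for 61, of which 15 reached past both limits. Genes with the whole interval inside had a median of 42 oidia reads, and the others 12. When each library was left out in turn, 137 genes stayed within the limits every time. The other 74 left the set without at least 1 library and had a median of 12.5 oidia reads, against 23 for those that stayed.

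**Figure D3:**
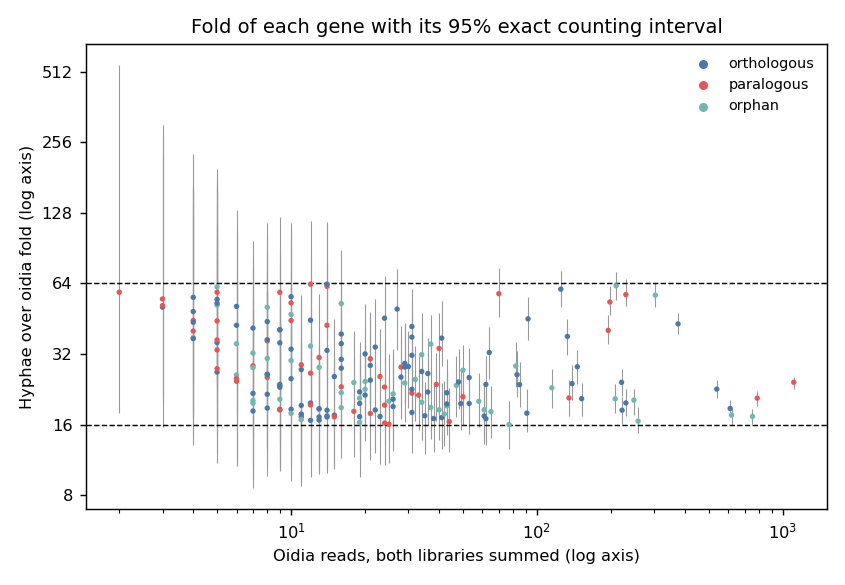
Fold (hyphae over oidia, log axis) of each of the 211 selected genes against its oidia reads summed over both libraries (log axis), coloured by region class; vertical lines are 95% exact counting intervals and dashed lines the limits of 16 and 64. Intervals narrow from 18.0 to 546 at 2 oidia reads to 22.7 to 25.6 at 1108 oidia reads.

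The genes nearest each limit were separated by small margins. Just inside the lower limit, CC1G_10151 had 784 and 827 normalized hyphae reads against 53.5 and 47.1 in oidia, a fold of 16.003, and CC1G_10083 had 283 and 249 against 15.5 and 17.7, a fold of 16.07. Just outside it, CC1G_03976 had 269 and 280 against 16.7 and 17.7 (15.985-fold), and CC1G_07114 had 366 and 394 against 22.6 and 25.03 (15.958-fold). At the upper limit CC1G_08739 had 544 and 640 normalized hyphae reads against 8.33 and 10.3 in oidia (63.6-fold). CC1G_05356 had 482 and 479 against 10.7 and 4.42 (63.5-fold), its log2 fold change being 5.95 with all libraries and 6.77 without oidia replicate 1. The 2 genes just above, CC1G_10862 and CC1G_05962, had 3 and 5 oidia reads in all and folds of 66.0 (95% exact interval 21.999 to 316) and 66.5 (27.97 to 203). The intervals of all 8 genes reach across the limit beside them.

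The 6 selected genes with the most normalized hyphae reads comprised 3 paralogous, 2 orphan and 1 orthologous region. CC1G_11525, a region classed as paralogous on chromosome 2 from 2650410 to 2651878, had 17077 and 18272 normalized reads in hyphae and 731 and 726 in oidia. Its fold was 24.3 (95% exact interval 22.7 to 25.6), and its log2 fold change 4.64 ± 0.07 (SE). Both oidia values stood far below both hyphae values, as in all 211 genes, which were chosen on these values. CC1G_11525 was also the gene with the most oidia reads of the set. CC1G_12507, an orphan region on chromosome 2 from 3175576 to 3176358, had 10804 and 12115 in hyphae against 187 and 215 in oidia, 57.1-fold (50.9 to 64.05). CC1G_11444, a paralogous region on chromosome 6 from 818643 to 819166, had 10660 and 10811 against 523 and 511, 20.8-fold (19.3 to 22.3). These 2 genes had nearly equal hyphae counts and differed in oidia. Coordinates are those of the region rows of the table, each spanning all or part of a gene; the sources used here do not name their genome build.

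CC1G_14207, an orthologous region on chromosome 3 from 1960479 to 1963564, had 10537 and 10870 normalized reads in hyphae and 230 and 268 in oidia, 43.0-fold (95% exact interval 39.1 to 48.1). CC1G_05819, paralogous, on chromosome 12 from 260801 to 261433, had 9008 and 8645 against 130 and 178, 57.4-fold (51.4 to 66.9). CC1G_06529, an orphan region on chromosome 12 from 1479373 to 1479855, had 8300 and 9086 against 131 and 147, 62.5-fold (54.6 to 71.9). All 3 were higher in both hyphae libraries than in either oidia library, as were all 211 genes, which were chosen on these values. The intervals of CC1G_05819 and CC1G_06529 cross 64. The 10 selected genes with the most hyphae reads held 45.2% of the hyphae reads of the set and 44.7% of its oidia reads.

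Levels can be compared between genes per length. Normalized reads per kb of region had a median of 231 in hyphae (range 23.6 to 19515) and 9.28 in oidia (range 0.615 to 759) over the selected genes. Genes with at least 100 reads in both hyphae libraries had medians of 134 and 121. Ranked by reads per kb among 12810 genes with a hyphae read and a region, 15 selected genes were among the leading 100 in hyphae and 82 among the leading 1000, while 0 were among the leading 100 and 2 among the leading 1000 in oidia. Their median rank was 1620 in hyphae and 7988 in oidia. The rule asked for many reads in hyphae and few in oidia, so this contrast in levels and ranks restates the selection. How many other genes over the same read minimum reach these ranks was not counted. CC1G_11444 ranked highest in hyphae, 9th with 19515 reads per kb, and was also highest of the set in oidia, at rank 779 with 759 reads per kb. CC1G_06529 at rank 10, CC1G_12507 at rank 12 and CC1G_05819 at rank 13 followed, with 17503, 14634 and 13932 hyphae reads per kb. CC1G_14207, with a region of 3086 bases, came only to rank 83 with 3509 reads per kb. The ranking reorders the leading genes because 4 of the first 6 have regions under 1000 bases.

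The rule did not use the ratio between libraries of a stage. Its minimum of 100 reads in each hyphae library does limit how far low-count genes can disagree, and the comparison genes share that minimum. The log2 ratio of hyphae replicate 1 to replicate 2 had a median of -0.06 and an SD of 0.13 over the selected genes, against -0.05 and 0.13 over all genes with at least 100 reads in both. The hyphae libraries of 7 of the 64 selected genes with fewer than 500 hyphae reads (10.9%) differed by more than the 95% exact counting interval allows, against 7.77% of 1930 other genes of that depth. From 500 to under 2000 reads these shares were 12.9% and 9.81%, and from 2000 reads 23 of 46 selected genes and 200 of 600 others differed in this way. Whether these shares differ was not tested. The extremes were low-count genes. CC1G_06324 had 228 and 135 reads, CC1G_09474 189 and 112, and CC1G_03120 209 and 127, with log2 ratios of normalized counts of 0.33, 0.33 and 0.29. At the other end CC1G_14818 had 210 and 208 reads and CC1G_10354 had 183 and 179, with log2 ratios of -0.41 and -0.39. In each of these 5 genes, as in all 211, both hyphae values stayed above both oidia values. The rule used these values, so this says nothing further.

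The log2 ratio between libraries spread more in oidia, where read counts were lower. Among the 101 selected genes with at least 20 oidia reads, the log2 ratio of oidia replicate 1 to replicate 2 had a median of -0.02 and an SD of 0.60. These genes had a median of 42 oidia reads, against 853 hyphae reads over the set. Beyond the 95% exact counting interval, the oidia libraries differed in 9 of these 101 genes (8.91%). Among 3596 other genes with 20 to 1108 oidia reads and at least 100 reads in both hyphae libraries, 13.3% did. Their median was 243 oidia reads. The hyphae libraries differed in this way in 43 of the 211 (20.4%), against 582 of 4895 other genes over that hyphae minimum (11.9%). Read depth differs between these groups, so the shares do not compare the stages. For 6 of the 76 selected genes with 20 to 99 oidia reads (7.89%), the oidia libraries differed by more than the 95% exact counting interval allows. Of the 782 other genes with these oidia reads and at least 100 reads in both hyphae libraries, 8.70% did. The median absolute log2 ratio between the oidia libraries was 0.48 for these selected genes and 0.34 for the others. Reads within that range were not matched, and the difference was not tested. The genes that differed most were CC1G_08592 with 31 and 6 oidia reads, CC1G_11448 with 25 and 7, and CC1G_12085 with 39 and 11, all 3 orphan regions and higher in replicate 1. Their hyphae values were close to each other, at 777 and 835, 486 and 511.7, and 819 and 888 normalized reads. Without oidia replicate 1 the log2 fold changes rose from 5.08 to 6.53 for CC1G_08592, from 4.600 to 5.62 for CC1G_11448 and from 4.73 to 5.75 for CC1G_12085. That of CC1G_08592 was 4.48 without oidia replicate 2. CC1G_14818, with 8 and 2 oidia reads, went from 4.57 to 5.70 without oidia replicate 1.

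The selected genes with the fewest oidia reads had their fold set by 2 or 3 reads. CC1G_01579 had 136 and 100 hyphae reads and 0 and 2 oidia reads, a fold of 58.7 with a 95% exact interval of 18.0 to 546. CC1G_02054 had 173 and 132 against 0 and 3, 50.7-fold (19.2 to 276), and CC1G_04762 had 141 and 109 against 3 and 0, 51.5-fold (15.7 to 227). CC1G_03120 likewise had 0 and 3, 54.96-fold (21.2 to 304). In all 4 the oidia reads lay in a single library. Without the other oidia library, the log2 fold changes were 4.87, 4.67, 4.68 and 4.81, against 5.96, 5.78, 5.50 and 5.92 with all libraries. Without the library that held the reads, the fitted values were 9.69, 10.07, 9.71 and 10.20 with no oidia read left, so these are not measured folds.

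The authors' table classes gene regions as orthologous, paralogous or orphan, and the rule did not use this class. Each selected gene overlapped a region row: 107 were orthologous (50.7%), 51 paralogous (24.2%) and 53 orphan (25.1%). Among genes with at least 100 reads in both hyphae libraries the shares were 71.3%, 10.2% and 18.5%, and among all gene rows with a region 44.1%, 28.1% and 27.8%. The set thus held a larger share of paralogous and a smaller share of orthologous regions than the genes over the same read minimum, and a smaller share of paralogous regions than all genes. The read minimum did not make the depths equal: 46 of the 211 selected genes had at least 2000 hyphae reads, against 646 of those 5106. Put the other way, 9.75% of the 523 paralogous regions over the read minimum were in the set, 5.62% of the 943 orphan and 2.94% of the 3639 orthologous ones. These are descriptions with no test.

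The paralogous share was larger in bins of higher fold. Among genes with at least 100 reads in both hyphae libraries, paralogous regions were 7.52% of 3536 genes within 4-fold, 15.4% of 661 genes 4- to 16-fold higher in hyphae, and 24.2% of the 211 selected genes. They were 46.8% of 79 genes at 64-fold or more with oidia reads and 80.0% of 25 genes with no oidia read. On the oidia side, 7.93% of 593 genes at least 4-fold higher there were paralogous. Within the set the share was 21.0% under 32-fold and 30.9% from 32-fold up. At each depth it was above the share of all genes: 26.6% among selected genes with fewer than 500 hyphae reads, 25.7% from 500 to under 2000 and 17.4% from 2000, against 11.7%, 8.96% and 10.7% of all genes with as many hyphae reads and at least 100 in both libraries. The sources used here do not say how a read that matches several copies was counted. The value of a single paralogous region is therefore uncertain, and the part of such reads in these shares was not tested.

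**Figure D4:**
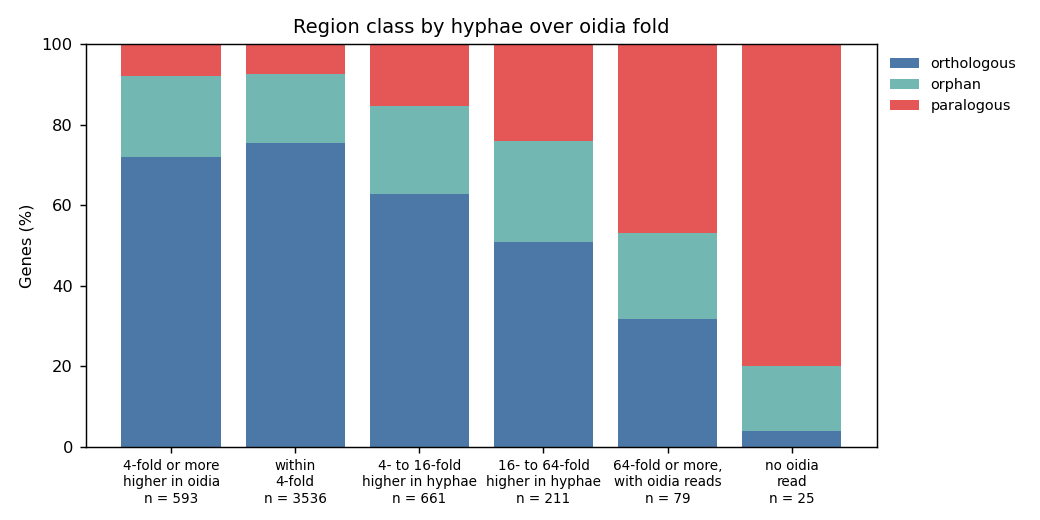
Share (%) of orthologous, orphan and paralogous regions among genes with at least 100 reads in both hyphae libraries, in bins of the fold between stages, with the number of genes under each bar. The paralogous share runs from 7.52% within 4-fold through 24.2% in the selected genes to 80.0% with no oidia read.

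Regions of the selected genes were short. Their median length was 1315 bases (range 229 to 4877), against 1733 for genes with at least 100 reads in both hyphae libraries and 1441 for all genes. Median lengths were 1793 bases within 4-fold, 1589 at 4- to 16-fold, 1068 at 64-fold or more with oidia reads, and 762 with no oidia read. The set's orthologous regions had a median of 1451 bases, its paralogous ones 1277 and its orphan ones 1023. In all 3 classes this was below the median of all regions of that class over the read minimum, which were 1769, 1688 and 1579 bases. A short region collects fewer reads at the same RNA level, so the read minimum and length are linked; the part of this in the lengths was not tested. Orphan regions of the set had the highest median level per kb in hyphae, at 358, with 218 for orthologous and 212 for paralogous regions. Among all regions over the read minimum, orphan ones were also highest, at 143, with 133 for orthologous and 134 for paralogous regions. The read minimum is a higher level per kb in a shorter region, and the part of this was not tested.

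Region rows gave a second set of counts from the same libraries, not an independent measurement. For the 50 selected genes at least 10% longer than their region, the region row held 83.7% to 86.1% of the gene's reads, by library. For the other 161 it held 100.2% of the gene's reads in each hyphae library and 103.8% and 104.6% in oidia, so reads were counted there that the gene row lacks. In 194 of the 211 selected genes the fold from region reads also lay between 16 and 64, with a median of 24.8. In 15 it fell under 16 and in 2 it was 64 or more. The 5 genes given next were picked after their values were seen. CC1G_06425 had 168 and 140 hyphae and 7 and 3 oidia reads as a gene (17.9-fold), and 66 and 42 against 4 and 3 as a region (8.53-fold), which spans 0.339 of the gene. For CC1G_07464 the folds were 26.4 as a gene and 11.9 as a region, which spans 0.554 of the gene. CC1G_03120, whose region spans 0.998 of the gene, had 0 and 3 oidia reads as a gene but 1 and 12 as a region, with folds of 54.96 and 13.5. In the other direction CC1G_06529 went from 62.5 to 85.1, because 73 and 76 of its 110 and 100 oidia reads lay in the region but 12617 and 10292 of its 12973 and 10584 hyphae reads did. CC1G_08592 went from 35.3 to 64.7. No source used here names the strand setting, so reads of overlapping or antisense transcripts cannot be told apart from those of the gene.

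The selected genes lay on all 13 chromosomes. Relative to genes with at least 100 reads in both hyphae libraries they were 2.68% on chromosome 1 and 2.79% on chromosome 5, the lowest shares, and 6.76% on chromosome 6 and 7.84% on chromosome 13, the highest, where 14 of 207 and 8 of 102 genes were in the set. They did not form long runs: 22 genes (10.4%) stood directly beside another selected gene, in 11 pairs on 8 chromosomes. Of the 4894 other genes over the read minimum, 3.74% stood beside a selected gene. The most selected genes in any stretch of 10 consecutive genes was 3, which occurred on chromosomes 4, 5 and 7; these genes are named because they hold that maximum, found after the values were seen. On chromosome 4, CC1G_11886, CC1G_11890 and CC1G_11894 had folds of 16.8, 20.1 and 22.04. On chromosome 5, CC1G_00322, CC1G_00324 and CC1G_00325 had folds of 23.5, 26.1 and 42.5. On chromosome 7, CC1G_13483, CC1G_10171 and CC1G_10162, the first of which starts at base 2257 of the chromosome, had folds of 19.7, 21.9 and 57.9.

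In the 3 pairs with the most hyphae reads the partners differed in level by different amounts. CC1G_11524 lies 620 bases before CC1G_11525 on chromosome 2, and both are classed as paralogous. It had 442 and 528 normalized reads in hyphae and 24.98 and 33.9 in oidia (16.5-fold), far below its partner in both stages. CC1G_06528 and CC1G_06529 on chromosome 12, 1201 bases apart, are paralogous and orphan. CC1G_06528 had 5120 and 5352 normalized reads in hyphae and 117 and 143 in oidia, 40.4-fold beside the 62.5-fold of CC1G_06529. CC1G_11924 and CC1G_11925 lie 770 bases apart on chromosome 2 from 1716822 to 1719788. They had 3138 and 3504 against 89.2 and 85.4 (38.0-fold), and 6939 and 7207 against 447 and 358 (17.6-fold). All 4 hyphae values of this pair lay above all its oidia values, and the rule chose both genes on these values. Among the other pairs, CC1G_09531 and CC1G_09532 on chromosome 6 had 53.3-fold and 45.2-fold, and CC1G_03592 and CC1G_03593 on chromosome 9 had 23.0-fold and 42.4-fold. Over the 11 pairs, 126 to 1201 bases separated the regions, and the larger fold was 1.10 to 2.16 times the smaller. In 1 pair both regions were paralogous, in 3 both were orthologous, and 4 held at least 1 paralogous region.

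Neighbours outside the set had higher hyphae-to-oidia ratios than neighbours of other genes, given here as a description with no test. Among 183 next neighbours with at least 100 reads in both hyphae libraries and an oidia read that were not selected, the median log2 ratio of hyphae to oidia was 0.62, and 23.0% were at least 4-fold higher in hyphae. Next to the other genes over that minimum, 4599 such neighbours had a median of 0.12, with 14.6% at least 4-fold higher. Adjacent genes can share reads where transcripts run into each other, and the part of such reads in this difference was not tested.

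**Figure D5:**
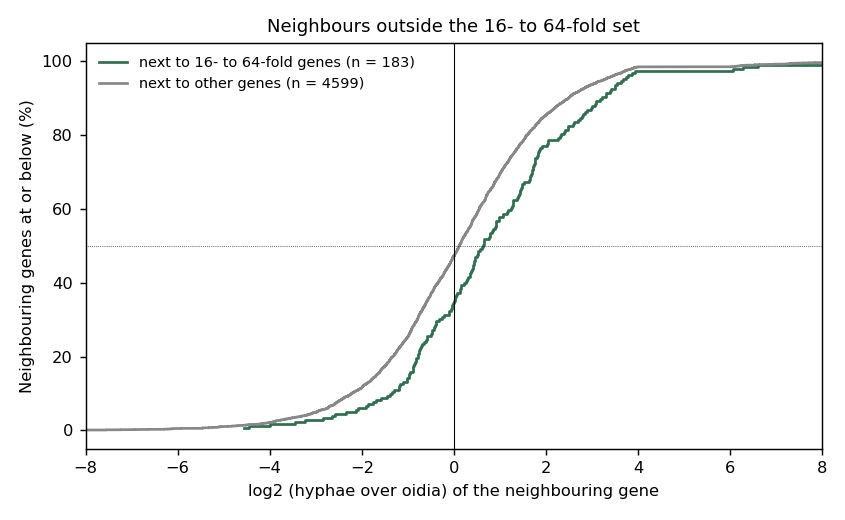
Cumulative share (%) of next neighbours by their log2 ratio of hyphae to oidia, for neighbours of the 211 selected genes (green, n = 183) and of other genes with at least 100 reads in both hyphae libraries (grey, n = 4599). Selected genes are left out as neighbours, which makes both curves flat between 4 and 6; the medians are 0.62 and 0.12.

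The set met other features of the genome as follows. Within 100 kb of the outermost rows of a chromosome lay 11 selected genes (5.21%), against 3.35% of genes over the read minimum and 6.90% of all genes. Within 100 kb of a centromere row lay 10 (4.74%, against 6.82% and 5.72%). No selected gene overlapped a repetitive row, where 6 of 5105 genes over the read minimum and 276 of 13228 genes in all did. Within 10 kb of a Kyakuja or Dileera row, both families of DNA transposons, lay 2 selected genes, CC1G_10121 on chromosome 1 and CC1G_12718 on chromosome 4, which lie 8115 and 3589 bases from it; this is 0.948% of the set, against 1.68% of genes over the read minimum and 6.18% of all genes. These 2 were named after their values were seen. Of the 51 paralogous selected genes, 38 stood beside another paralogous region, as did 330 of the 523 over the read minimum and 2809 of all 3717. Orphan regions under 600 bases numbered 7 (3.32%, against 2.12% over the read minimum and 6.63% of all genes), and orphan regions of 2000 bases or more also numbered 7 (3.32%, against 6.68% and 5.47%). Orthologous regions under 900 bases numbered 24 (11.4%, against 10.4% and 7.12%), and those of 4000 bases or more numbered 2 (0.948%, against 6.56% and 3.39%).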

How the data were processed

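Selection of poly(A) RNA and the kit of each stage are as per the labels' protocols. TopHat, Bowtie 0.12.7 and DESeq were used, per the submitters' processing notes. The table deposited by the authors holds raw read counts of genes and other elements by library, and all results rest on these counts. The deposited normalized signal per stage was not used. The deposited fold ratio and log2 columns, described as hyphae over oidia, are by their values oidia over hyphae and were not used. No result rests on the deposited p-values.

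Members were found with size factors over 9787 gene rows. Each gene was given the region row that overlaps it most, by position in the RefSeq gene list. For 748 genes whose counts matched a single region in all 4 libraries, that region was the one picked in all 748. The tests used edgeR 4.0.16 in R 4.3.3 (quasi-likelihood, TMM, filterByExpr, Benjamini-Hochberg adjusted p under 0.05), after a check on simulated data. That check changed 200 genes, far fewer than the 8182 called here, so it does not cover the scaling of these data. Standard errors come from the fold change and F statistic. Exact intervals cover counting error only, and those of folds use reads summed by stage with summed size factors. With 2 libraries a stage, the smallest two-sided p of an exact permutation is 0.333. Alternatives were other scalings, filters, DESeq2 1.42.0, a replicate block and leaving out each library; the region reads were added after seeing the data.

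Members and lists were chosen with earlier results of these data known. Named genes followed a rule: the most hyphae reads, the values nearest each limit, the largest library differences, runs of neighbours and the fewest oidia reads; ties between runs were ordered by hyphae reads after seeing the data. Its parts on product names, and the planned protein, promoter and keyword lists, could not be evaluated from the files used here.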

Additional observations from a re-analysis of the deposited data

How the results depend on the processing

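The rule fixed the direction of the 211 selected genes, and all were called higher in hyphae under each alternative that tested all of them. Among all genes, from 3468 (DESeq2) to 7407 of 9866 (total counts) were called higher in hyphae, against 4455 of 9866 as reported. DESeq2 was given all 13342 gene rows, of which 12861 had a read. The number it tested was not recorded, so its count is not given as a share. A mean count of at least 100 tested 170 of the selected genes and called 170. Of 5130 genes it called 4659, 2429 of them higher in hyphae, against 8182 of 9866 called as reported. The number of genes in the set was 216 with TMM and 252 with upper-quartile scaling, 277 and 155 with minimums of 50 and 200 hyphae reads, 205 to 233 without each library, and 208 from region reads. With total-count scaling it was 528, of which 73 were in the set, since folds of the 211 genes then ran from 48.1 to 191; of those 528 genes 78 stood beside another, the median length was 1547.5 bases, and the paralogous share minus that of all genes was -12.0 percentage points. For the 211 genes this difference was -3.93 points, and 13.9 points against genes with at least 100 reads in both hyphae libraries. The median log2 fold change of 4.66 was 4.92 with upper-quartile scaling, 6.19 with total counts and 4.96 under the filter on mean counts. That filter leaves out the 41 genes with fewer reads, and TMM factors were computed anew on the rows kept. Genes that it keeps shifted too, CC1G_12507 from 5.88 to 6.19 and CC1G_10151 from 4.03 to 4.33. The median ranged from 4.63 to 4.80 without each library. Relative to the median of all genes the 2 scalings gave 4.41 and 4.40, against 4.41 as reported. As a share of reads of all rows the set took 3.44% in hyphae and 0.0428% in oidia. Region rows overlap gene rows, so that total counts many reads again and these are not shares of a library. Same-numbered libraries did not deviate together (correlation -0.01 across 9866 genes). With the replicate block 7928 of 9866 genes were called, 4286 of them higher in hyphae. All 211 of the set were among the latter, at a median of 4.66. The 29 genes named by rule kept direction and call in all 311 fits. They are selected genes or lie just outside the limits of this same contrast, so that count says nothing further. Genes named only after their values were seen had no such fits. GC content, protein and promoter alternatives were not run. Depth in oidia limits single folds.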
